A study of Mus musculus with 12 samples.

Results

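The 9 genes described here encode proteins by which skin cells take up, carry and activate long-chain fatty acids. They were chosen by symbol, as the fatty acid transporters Cd36, Slc27a1, Slc27a3 and Slc27a4, the binding protein Fabp5 and the acyl-CoA synthetases Acsl1, Acsl3, Acsl4 and Acsl5, by a rule that uses no measured value. They make up 9 of the 23282 entries counted, and all 9 were among the 14163 genes with enough counts to be tested. Skin RNA came from 5 mice with atopic dermatitis-like lesions (AD) and 7 mice with the same lesions and diet-induced obesity (AD+OB, the HF + AD group of the study), with 1 library per sample, sequenced from the 3′ ends of mRNA. The mice of both groups were WT male C57BL/6J animals, 5 weeks old at the start, whose skin on the back was painted with 0.5% 2,4-dinitrochlorobenzene (DNCB) in acetone and olive oil 3 times per week for 6 weeks, and which were fasted for 12 h before tissue was taken. AD mice ate normal chow. AD+OB mice ate a diet with 60 kcal% fat (D12492) for 10 weeks, of which 4 weeks preceded DNCB. The sham mice and the mice given GHJGS were not analysed here, so both groups carried the DNCB treatment and no untreated skin stood beside them. In this model the dermatitis is a contact reaction to a hapten, and obesity was not separated from the diet that produced it.

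Long-chain fatty acids enter cells by way of the scavenger receptor CD36 and the fatty acid transport proteins of the SLC27 family, which also have acyl-CoA synthetase activity. Inside the cell they travel on fatty acid-binding proteins, and the ACSL enzymes join them to coenzyme A, after which they can be oxidized, elongated or built into triglycerides, phospholipids and ceramides. In skin, this supply feeds the lipids of the epidermal barrier and of sebum, and FATP4, the product of Slc27a4, is needed for a working barrier in newborn mice.

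Library totals were between 9746937 and 11688979 reads in AD mice and between 10726845 and 13462434 in AD+OB mice. Scaling factors by the trimmed mean of M-values (TMM) lay between 0.944 and 1.04, and levels are given as CPM, the reads per 1000000 of the scaled total. Since this kit reads each mRNA once near its 3′ end, CPM was compared between genes without dividing by length. The groups stood apart in library complexity, with between 13100 and 15063 genes with a read in AD mice and between 15522 and 16677 in AD+OB mice, and with an estimated 12.01 to 32.18 counts per original molecule in AD against 3.86 to 7.29 in AD+OB. This difference runs with the groups, and its part in the results was not tested. In an alternative, all counts of a library were divided by its estimate. Scaling then takes this divisor out of the fold changes, so the alternative cannot remove a difference in complexity.

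None of the 9 genes passed the test between the groups, and their values overlapped between AD and AD+OB mice in every case. By edgeR's quasi-likelihood test with Benjamini-Hochberg adjustment over all genes tested, 0 rose and 0 fell at an adjusted p under 0.05, where 4.43% of all genes tested rose and 4.77% fell (9.2% in either direction). Without adjustment 1 gene, Slc27a4, had a p under 0.05, against 25.1% of all genes tested, and it no longer did without AD mouse 1, AD mouse 2 or AD+OB mouse 4 or with a correction for GC content chosen after seeing the data. DESeq2's Wald test and limma-trend also gave 0 adjusted calls, and each gave 2 at an unadjusted p under 0.05, Acsl3 and Slc27a4. By the two-sided exact permutation test of mean log2(CPM + 1), whose smallest p over the 792 splits of 12 mice is 0.00126, 1 gene, Acsl3, had a p under 0.05, against 28.4% of all genes tested. The share of all genes tested whose groups did not overlap was 5.46%. The fitted difference was positive for 4 genes and negative for 5, with a median log2 fold change of −0.0088, beside 0.023 over all genes tested. These p-values set the difference between the groups against the variation between mice. In bulk skin, fewer cells of a type and less RNA per cell cannot be told apart.

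**Figure D1:**
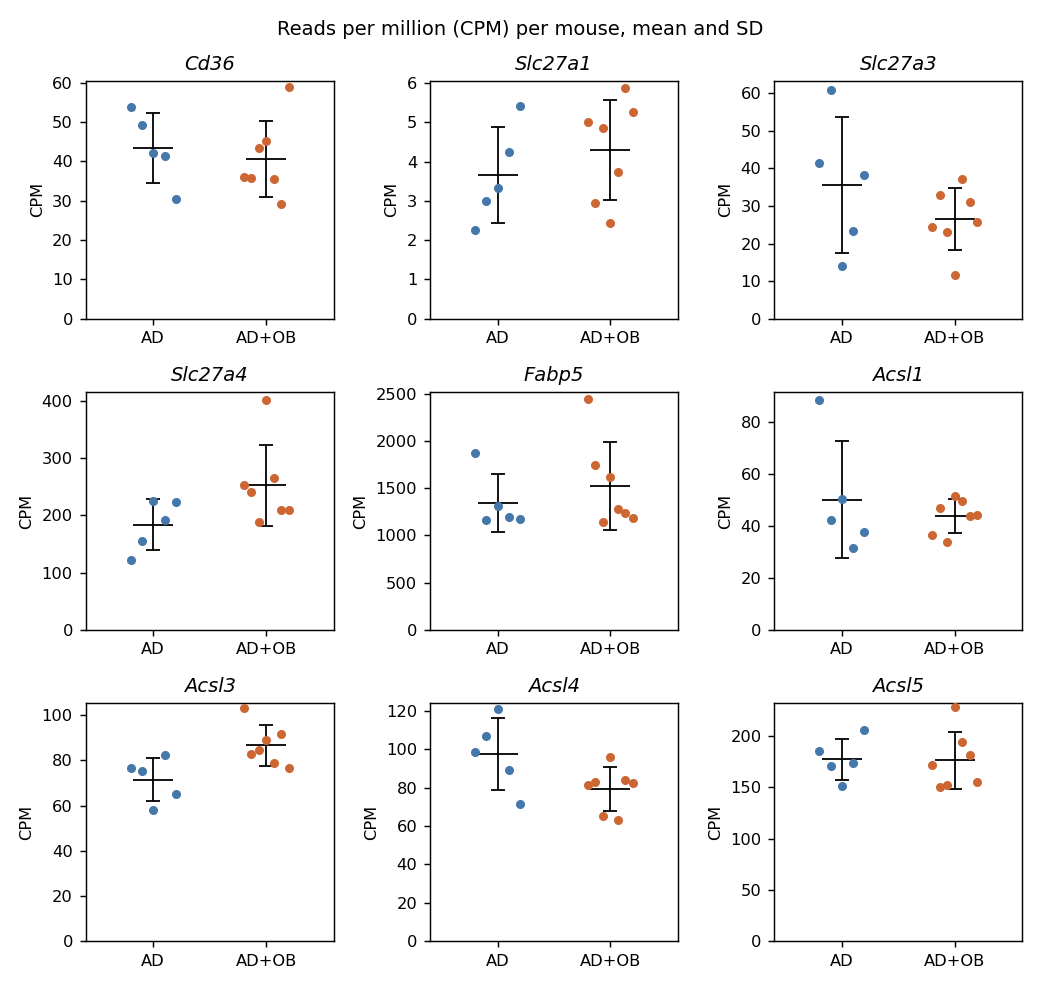
Each panel shows 1 gene, with CPM on the vertical axis from 0, a point for each mouse (5 AD, 7 AD+OB), and the mean with its SD as bars. The groups overlap in all 9 panels, and 5 of the 7 AD+OB mice lie above every AD mouse for Acsl3 and 4 of 7 for Slc27a4.

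The 95% interval of the log2 fold change lay within 1 unit of 0 for 7 of the 9 genes. The exceptions were Slc27a1, the gene with the fewest reads, and Slc27a3, the gene with wide spread in AD mice. A change of more than 2-fold either way was therefore outside the interval for Cd36, Slc27a4, Fabp5, Acsl1, Acsl3, Acsl4 and Acsl5.

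**Figure D2:**
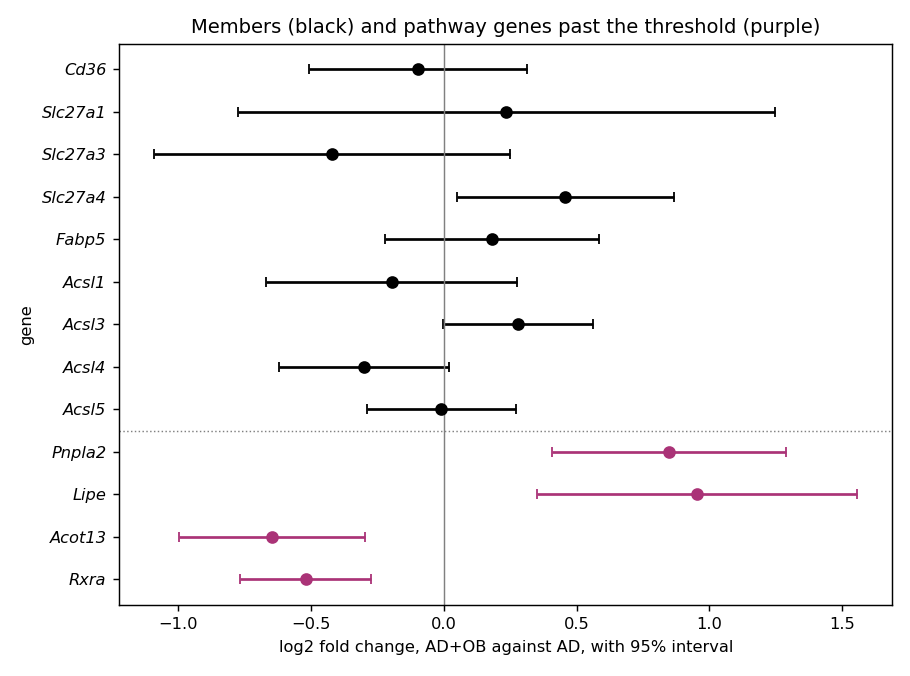
Points are edgeR log2 fold changes of AD+OB against AD on the horizontal axis, and bars are 95% intervals. Of the 9 genes of uptake and activation (black) only Slc27a4 has an interval, 0.05 to 0.87, that leaves out 0, and the 4 other fatty acid genes that passed the adjusted threshold (purple) are placed under them.

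The genes covered a wide range of levels. Over all 12 mice, Fabp5 was at 1447 ± 401.5 CPM (SD), higher than 99.7% of the genes tested, and took between 63.3% and 77.5% of the summed CPM of the 9 genes, with a median of 65.0%. Slc27a4 followed at 223.7 ± 68.9 CPM and Acsl5 at 176.8 ± 24.0 CPM, and the former was the higher in 10 of 12 mice, in 3 of 5 AD mice and all 7 AD+OB mice. Fabp5 over Slc27a4, Acsl5 over Acsl4 and Slc27a3 over Slc27a1 held in all 12 mice. The neighbours Acsl4 and Acsl3 at 87.0 ± 16.9 and 80.4 ± 11.8 CPM did not differ beyond their spread, and neither did Acsl1 and Cd36 at 46.3 ± 14.8 and 41.7 ± 9.04 CPM, or Cd36 and Slc27a3 at 30.3 ± 13.3 CPM. Acsl4 exceeded Acsl3 in all 5 AD mice but in 3 of 7 AD+OB mice. Slc27a1 was the lowest at 4.03 ± 1.24 CPM.

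Among the uptake genes, Cd36 encodes the scavenger receptor and fatty acid translocase of adipocytes, muscle, endothelium and macrophages (chr5:17781690-17888801, minus strand, GRCm38). It was at 53.7, 49.2, 42.1, 41.3 and 30.5 CPM in AD mice 1 to 5, and at 29.2, 36.1 and 58.9 CPM as the lowest, median and highest of the AD+OB mice. The AD+OB group held both the highest and the lowest value, and the groups overlapped over nearly their whole range. The fitted log2 difference was −0.09 (SE 0.19, 95% interval −0.50 to 0.32, adjusted p = 0.812, edgeR), and it turned to 0.0006 without AD mouse 1.

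Slc27a4 encodes FATP4, the fatty acid transport protein of the epidermis (chr2:29802634-29817522, plus strand). AD mice 1 to 5 had 122.1, 155.2, 225.6, 191.3 and 224.1 CPM, from 1347, 1500, 2236, 2164 and 2478 reads, and AD+OB mice had 188.3, 240.2 and 401.3 CPM as the lowest, median and highest. AD mice 1 and 2 were the lowest of all 12, AD+OB mouse 4 was the highest by a wide margin, and 4 of the 7 AD+OB mice exceeded every AD mouse. AD mice 1 and 2 also had the least complex libraries, with an estimated 32.18 and 29.22 counts per molecule. The part of this in their Slc27a4 levels was not tested. Mean levels were 183.7 ± 44.9 (SD, n = 5) and 252.3 ± 71.1 CPM (SD, n = 7), a fitted 1.37-fold difference with a log2 fold change of 0.46 (SE 0.19, 95% interval 0.05 to 0.87, unadjusted p = 0.0303, adjusted p = 0.148, edgeR). The two-sided exact permutation test of log2(CPM + 1) gave p = 0.0556, and leaving out 1 mouse moved it between 0.0281 and 0.164. With library totals alone in place of TMM the exact permutation p was 0.0379. A correction of each library for transcript GC content, chosen after seeing the data, lowered the log2 fold change to 0.20 (adjusted p = 0.559, edgeR). Division by counts per molecule gave 0.44 (adjusted p = 0.121, edgeR). That division uses the same divisor for every gene of a library, which the scaling takes out again. It could therefore hardly move the fold change.

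Slc27a3 encodes FATP3, which acts mainly as an acyl-CoA synthetase inside the cell (chr3:90385239-90389938, minus strand). Its levels were 41.4, 60.8, 13.9, 23.3 and 38.3 CPM in AD mice 1 to 5, and 11.7, 25.9 and 37.3 CPM as the lowest, median and highest of the AD+OB mice. The AD mice ranged more widely than the AD+OB mice, and only AD+OB mouse 4 lay outside the AD range. AD+OB differed from AD by −0.42 in log2 fold (SE 0.32, 95% interval −1.09 to 0.25, adjusted p = 0.451, edgeR), with −0.14 without AD mouse 2 as the value nearest 0 of those leaving out 1 mouse, and −0.74 (adjusted p = 0.155) with the GC correction.

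Slc27a1 encodes FATP1, the transport protein of muscle and fat (chr8:71568882-71587302, plus strand). It had 25, 29, 33, 48 and 60 reads in AD mice 1 to 5 and between 28 and 72 in AD+OB mice, or 3.65 ± 1.22 CPM (SD, n = 5) and 4.30 ± 1.28 CPM (SD, n = 7). At the estimated counts per molecule these reads would stand for 0.777 to 4.996 original molecules in AD mice and 4.44 to 15.98 in AD+OB mice. A value under 1 cannot hold for a gene with reads, so the estimate is rough. By it, the AD values may rest on few molecules. Its log2 fold change of 0.24 (95% interval −0.77 to 1.25, adjusted p = 0.810, edgeR) was the least precise of the 9. It moved to 0.11 without AD mouse 1, to 0.14 without AD+OB mouse 6, to 0.43 without AD mouse 5 and to 0.024 with the GC correction. After division by counts per molecule it no longer had enough counts to be tested.

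Fabp5 encodes the fatty acid-binding protein of keratinocytes, which also hands fatty acids to the nuclear receptor PPARδ (chr3:10012548-10016607, plus strand). AD mice 1 to 5 had 1877, 1159, 1308, 1196 and 1169 CPM, and AD+OB mice had 1145, 1280 and 2446 CPM as the lowest, median and highest. AD mouse 1 stood above the other 4 AD mice, which lay close together, and AD+OB mouse 1 was the highest of all 12. The log2 fold change was 0.18 (SE 0.19, 95% interval −0.22 to 0.59, adjusted p = 0.609, edgeR), and it moved between 0.028 and 0.34 when 1 mouse was left out. The transcript is at least 95% identical over 200 bases or more to 2 other annotated genes, Gm14328 and Gm6166, which have no entry in the counts, so reads from them could not be told apart from Fabp5.

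Of the acyl-CoA synthetases, Acsl3 encodes an enzyme of the endoplasmic reticulum and lipid droplets that supplies acyl-CoA for new triglyceride and phospholipid (chr1:78657825-78707743, plus strand). It was at 76.5, 75.2, 58.2, 82.4 and 65.1 CPM in AD mice 1 to 5, and at 76.6, 84.6 and 103.1 CPM as the lowest, median and highest of the AD+OB mice. 5 of the 7 AD+OB mice exceeded every AD mouse, and the other two lay between the highest and the next AD mouse. Means were 71.5 ± 9.68 (SD, n = 5) and 86.7 ± 9.02 CPM (SD, n = 7). The log2 fold change was 0.28, or 1.21-fold (SE 0.13, 95% interval −0.0039 to 0.56, unadjusted p = 0.0529, adjusted p = 0.206, edgeR). The two-sided exact permutation test of log2(CPM + 1) gave p = 0.0114, and between 0.00606 and 0.0333 when 1 mouse was left out, not adjusted for the number of genes. Acsl3 overlaps Utp14b on the same strand, although Utp14b does not cover the 3′ end of Acsl3. Their transcripts are at least 95% identical over 200 bases or more, so reads from that stretch could not be told apart with certainty. Utp14b had 0 to 198 reads in AD mice and 47 to 172 in AD+OB mice, against at least 577 for Acsl3. Its log2 fold change was 0.64 (adjusted p = 0.673, edgeR).

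Acsl4 encodes the synthetase that prefers arachidonic acid and other polyunsaturated fatty acids, a step on the way to phospholipids from which eicosanoids are made (chrX:142317993-142390535, minus strand). It was at 98.6, 107.1, 121.2, 89.4 and 71.7 CPM in AD mice 1 to 5, and at 63.3, 82.4 and 96.2 CPM as the lowest, median and highest of the AD+OB mice. AD mice 1, 2 and 3 lay above all AD+OB mice, and AD mouse 5 lay among the lowest. The fitted difference was −0.30 in log2 fold, a ratio of 0.813 (SE 0.15, 95% interval −0.62 to 0.022, unadjusted p = 0.0658, adjusted p = 0.234, edgeR), and the two-sided exact permutation p was 0.0732. Without AD mouse 5 the exact permutation p was 0.0182, and without AD+OB mouse 4 it was 0.0455.

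Acsl1 encodes the main synthetase of adipocytes, muscle and liver (chr8:46471037-46536051, plus strand). AD mouse 1 had 88.3 CPM, from 974 reads, and AD mice 2 to 5 had 42.2, 50.2, 31.5 and 37.6 CPM, beside 33.8, 44.0 and 51.3 CPM as the lowest, median and highest of the AD+OB mice. All AD+OB mice lay within the AD range, and AD mouse 1 stood far above all other mice. The log2 fold change of −0.20 (SE 0.22, 95% interval −0.67 to 0.28, adjusted p = 0.644, edgeR) turned to 0.12 without that mouse.

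Acsl5 encodes a synthetase of the mitochondrial outer membrane and endoplasmic reticulum (chr19:55251938-55297720, plus strand). It was the most abundant of the 4 synthetases, at 177.4 ± 20.1 CPM (SD, n = 5) in AD and 176.4 ± 28.0 CPM (SD, n = 7) in AD+OB, with ranges of 151.5 to 206.0 and 150.6 to 228.1 CPM. The log2 fold change of −0.0088 (SE 0.13, 95% interval −0.29 to 0.27, adjusted p = 0.980, edgeR) changed sign with small changes of the fit. The 3′ end of Acsl5 lies within Zdhhc6 on the opposite strand, and whether reads were counted by strand is not stated. Reads of the pair can therefore not be told apart with certainty, and Zdhhc6 itself had between 192 and 355 reads in the 12 mice against at least 1501 for Acsl5.

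**Figure D3:**
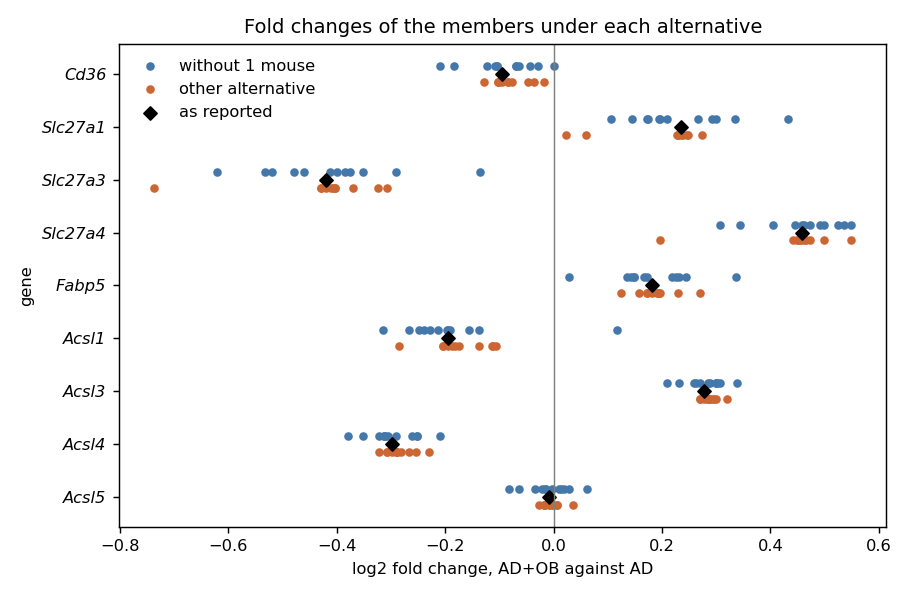
The horizontal axis gives the edgeR log2 fold change of AD+OB against AD, with a black diamond for the value as reported, blue points for fits without 1 mouse and orange points for other settings or tools. Slc27a4, Acsl3 and Fabp5 lie above 0 and Slc27a3 and Acsl4 below 0 in all 23 alternatives, whereas Acsl5 lies on both sides and Cd36 and Acsl1 cross 0 without AD mouse 1.

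Summed levels of the families also overlapped. The 3 SLC27 genes together were at 165.8 to 267.8 CPM in AD mice and 216.4 to 415.4 CPM in AD+OB mice, and the 4 ACSL genes at 376.8 to 449.1 and 336.0 to 464.8 CPM. A share of a family's reads does not depend on how libraries are scaled, and 7 such shares were compared by two-sided exact permutation tests, with p-values not adjusted for their number. Acsl3 took 17.0%, 19.1%, 15.3%, 21.9% and 17.1% of the ACSL reads in AD mice 1 to 5, and 19.2%, 22.8% and 26.2% as the lowest, median and highest in AD+OB mice. The groups overlapped, with 4 of 7 AD+OB mice above every AD mouse. The mean share was 18.1% ± 2.51 (SD, n = 5) in AD and 22.6% ± 2.51 (SD, n = 7) in AD+OB, 4.52 percentage points more (exact permutation p = 0.0139). Leaving out 1 mouse kept the difference between 3.82 and 5.47 points (exact permutation p from 0.00606 to 0.0424).

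The Acsl4 share was 24.7% ± 4.97 (SD, n = 5) in AD and 20.6% ± 2.25 (SD, n = 7) in AD+OB, a difference of −4.13 points (exact permutation p = 0.0732, and 0.0121 without AD mouse 5). Acsl5 took 44.9% ± 5.68 and 45.5% ± 3.16 of the ACSL reads (exact permutation p = 0.813), and Acsl1 took 12.4% ± 4.44 and 11.3% ± 1.41 (exact permutation p = 0.667). Within the SLC27 family, Slc27a4 took 81.7% ± 9.28 in AD and 88.4% ± 3.86 in AD+OB (exact permutation p = 0.129), and Slc27a3 took 16.7% ± 9.40 and 9.94% ± 3.42 (exact permutation p = 0.125). Slc27a1 took only 1.61% in AD and 1.64% in AD+OB, so these shares nearly mirror each other and amount to a single comparison. Without AD mouse 3 they differed by 9.53 and −9.49 points (exact permutation p = 0.0182 for each). In AD+OB mouse 4 the SLC27 reads were the most one-sided of all 12 mice, with 96.6% on Slc27a4 and 2.81% on Slc27a3.

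**Figure D4:**
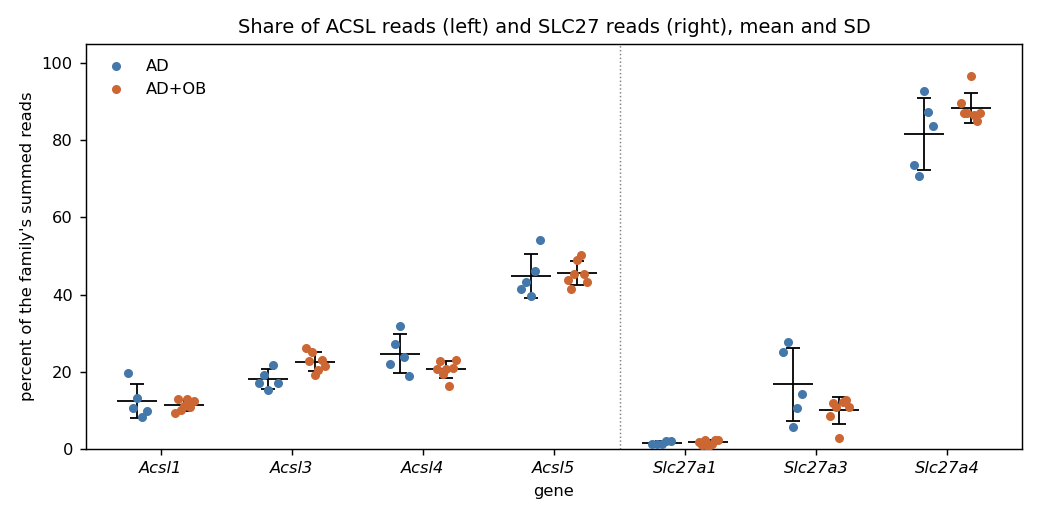
The vertical axis gives the percent of a family's reads on each gene, with the 4 ACSL genes at the left and the 3 SLC27 genes at the right, a point for each mouse and bars for the mean and SD. The Acsl3 share is 18.1% in AD and 22.6% in AD+OB, the Acsl4 share 24.7% and 20.6%, and the AD mice spread widely for Slc27a3 and Slc27a4.

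Sequence before the start site is shown for Slc27a4, Acsl3 and Acsl4, whose differences were nearest to a threshold, so that their promoters can be set beside each other. These are the 250 bases before each RefSeq start site on the GRCm38.p6 build, read 5′ to 3′ on the strand of the gene, at chr2:29802384-29802633 (plus), chr1:78657575-78657824 (plus) and chrX:142390536-142390785 (minus). Capitals mark exact matches on either strand to the GC box GGGCGG or the CCAAT box CCAAT.
Slc27a4: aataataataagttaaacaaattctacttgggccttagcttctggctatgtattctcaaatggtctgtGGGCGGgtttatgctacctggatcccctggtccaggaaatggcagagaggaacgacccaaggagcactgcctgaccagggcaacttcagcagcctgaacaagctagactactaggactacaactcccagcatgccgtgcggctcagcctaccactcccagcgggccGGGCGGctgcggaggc
Acsl3: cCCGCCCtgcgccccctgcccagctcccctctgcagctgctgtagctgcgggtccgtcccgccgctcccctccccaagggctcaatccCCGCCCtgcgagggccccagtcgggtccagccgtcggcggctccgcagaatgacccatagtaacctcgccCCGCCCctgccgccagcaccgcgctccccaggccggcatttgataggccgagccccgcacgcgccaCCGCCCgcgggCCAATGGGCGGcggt
Acsl4: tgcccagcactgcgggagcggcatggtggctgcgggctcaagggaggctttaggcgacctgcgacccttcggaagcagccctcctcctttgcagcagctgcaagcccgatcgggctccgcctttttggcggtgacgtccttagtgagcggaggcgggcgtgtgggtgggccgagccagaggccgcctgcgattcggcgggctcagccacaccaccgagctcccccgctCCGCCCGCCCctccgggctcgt

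The Acsl3 stretch holds 5 GC boxes, the last adjoining a CCAAT box, the Acsl4 stretch holds a pair that overlap, and the Slc27a4 stretch holds a pair far apart. Windows from 250 bases before to 50 bases after the start site were found for 8 of the 9 genes, 11 windows in all, and a window for Fabp5 was not used here. Of these, 8 held a GC box, beside 35.7% of 32851 such windows of all genes, and 7 held a CCAAT box, beside 37.4%. The letters AGGTCA, a half-site of nuclear receptors such as the PPARs, were found in 1 window, that of Cd36, beside 16.3% of all windows. A direct repeat of that half-site with 1 base between the copies, in 0.0396% of all windows, and TATAAA, in 13.6%, were found in 0 of the 11, and the E-box CACGTG, in 7.15% of all, was found in 1, of Slc27a1. A match is a description of the letters only.

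Other genes of fatty acid handling were read from lists of 41 genes, of which 32 passed the filter on low counts. Of these 32, 2 rose and 2 fell at an adjusted p under 0.05 by edgeR, beside 4.43% and 4.77% of all genes tested, a share too near that background to be read as a result about these lists. Their median log2 fold change was 0.03, beside 0.023 over all genes tested. The genes that rose were Pnpla2 and Lipe, and those that fell were Acot13 and Rxra.

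The release list had 4 genes, all tested. Pnpla2, which encodes adipose triglyceride lipase, the enzyme of the opening step of lipolysis, was at 28.7, 29.4, 20.1, 38.3 and 25.3 CPM in AD mice 1 to 5, and at 33.1, 54.7 and 62.4 CPM as the lowest, median and highest of the AD+OB mice. All but 2 AD+OB mice exceeded every AD mouse. It rose by 0.85 on the log2 scale (SE 0.21, adjusted p = 0.0204, edgeR). The call was lost without AD+OB mouse 2 (0.79, adjusted p = 0.0524) and with the GC correction (0.60, adjusted p = 0.0588).

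Lipe, which encodes hormone-sensitive lipase, was at 21.5, 21.1, 6.36, 22.4 and 13.9 CPM in AD mice 1 to 5 and at 22.6, 31.9 and 47.0 CPM as the lowest, median and highest of the AD+OB mice. The groups did not overlap, although the lowest AD+OB mouse lay just above the highest AD mouse. It rose by 0.95 on the log2 scale (SE 0.29, adjusted p = 0.0456, edgeR). This call was lost in 8 of the 12 fits without 1 mouse, those without AD mouse 2, 3 or 5 or AD+OB mouse 1, 2, 3, 4 or 7, with adjusted p from 0.0365 to 0.103 over the 12, and with the GC correction (0.73, adjusted p = 0.108). The others of the list were Mgll, for monoacylglycerol lipase and the most abundant gene not called, at 1002 ± 216.8 CPM (SD, n = 5) and 966.5 ± 247.1 CPM (SD, n = 7) (log2 fold change −0.05, adjusted p = 0.897), and Abhd5, for the co-activator of adipose triglyceride lipase (−0.37, adjusted p = 0.0932).

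Of the 9 genes for acyl-CoA binding proteins and thioesterases, all tested, 1 fell and 0 rose. Acot13, which encodes a mitochondrial thioesterase that frees fatty acids from long-chain acyl-CoA, was at 168.4, 171.9, 143.7, 89.3 and 114.7 CPM in AD mice 1 to 5 and at 62.8, 92.5 and 95.5 CPM as the lowest, median and highest of the AD+OB mice. The ranges overlapped through AD mouse 4 alone, so that 2 of 7 AD+OB mice lay below every AD mouse. It fell by 0.65 on the log2 scale (SE 0.17, adjusted p = 0.0245, edgeR), and the call was lost without AD mouse 2 (adjusted p = 0.0664). Dbi, for acyl-CoA-binding protein and the most abundant gene of the list not called over all 12 mice, was at 179.1 ± 39.4 CPM (SD, n = 5) and 327.5 ± 158.2 CPM (SD, n = 7), and its fitted difference of 0.87 on the log2 scale was just short of the threshold (adjusted p = 0.0505). In AD mice alone the thioesterase gene Acot1 was the more abundant, at 238.9 CPM, and it was at 267.9 CPM in AD+OB mice (log2 fold change 0.16, adjusted p = 0.478).

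Among the 5 PPAR regulators, all tested, 1 fell and 0 rose. Rxra, which encodes the retinoid X receptor α that pairs with the PPARs on DNA, was at 294.5, 277.6, 280.3, 295.7 and 274.4 CPM in AD mice 1 to 5 and at 164.0, 203.0 and 238.8 CPM as the lowest, median and highest of the AD+OB mice. The AD mice lay close together and all 7 AD+OB mice were below them. It fell by 0.52 on the log2 scale (SE 0.12, adjusted p = 0.0137, edgeR; two-sided exact permutation p = 0.00126, the smallest possible), and it passed in all 12 fits without 1 mouse (adjusted p from 0.00771 to 0.0343). Ppard, for PPARδ and the most abundant not called, was at 62.5 CPM on average in AD and 46.3 in AD+OB (log2 fold change −0.43, adjusted p = 0.285), and Pparg, for PPARγ, at 8.88 and 15.6 CPM (0.82, adjusted p = 0.0994).

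Other members of the SLC27, FABP and ACSL families were mostly too low to be tested, with 6 of 15 tested and 0 called in either direction by edgeR, and 0 at an unadjusted p under 0.05. Fabp4, the fatty acid-binding protein of adipocytes and some macrophages, was the most abundant, at 203.4 ± 195.8 CPM (SD, n = 5) and 175.6 ± 103.6 CPM (SD, n = 7) (log2 fold change −0.21, adjusted p = 0.840). Slc27a2 and Slc27a5, the transport proteins of liver, had 0 reads in all AD mice and at most 10 and 4 reads in an AD+OB mouse. In these libraries 3 counts are worth between 0.223 and 0.308 CPM. By the estimated counts per molecule, 12.01 to 32.18 in AD and 3.86 to 7.29 in AD+OB, that is less than 1 molecule. The 0 reads in AD mice therefore do not show that these genes were absent. For fatty acid supply from lipoproteins, 0 of 8 genes were called by edgeR and 1 had an unadjusted p under 0.05. In this list Ptrf, for cavin-1 of caveolae, was the most abundant at 846.3 ± 340.7 CPM (SD, n = 5) and 924.7 ± 203.6 CPM (SD, n = 7) (log2 fold change 0.13, adjusted p = 0.760).

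The libraries had the markers of skin. Keratinocyte, hair shaft and fibroblast markers were abundant, and no gene of the 10 marker lists was at 0 in every library. The counts of markers called below stand beside 4.43% of all genes tested that rose and 4.77% that fell, and no list was tested as a set. Summed adipocyte markers lay between 72.2 and 265.4 CPM in AD mice and between 60.7 and 273.2 CPM in AD+OB mice, with 0 of 6 tested genes called, and Plin4 the most abundant. Plin1 and Lep had 0 reads in some mice of both groups, whereas Adipoq, Plin4, Cidec, Cfd and Retn had reads in every mouse. Adipoq had 5 to 219 reads in AD mice and 19 to 232 in AD+OB mice, and Cidec had 94 to 950 and 60 to 1088. Summed skeletal muscle markers lay between 840.2 and 2081 CPM in AD and between 577.0 and 1456 CPM in AD+OB, with 1 of 7 genes, Acta1, lower (log2 fold change −0.72, adjusted p = 0.0481, edgeR). Mylpf alone of this list had a positive log2 fold change (0.54, adjusted p = 0.308, edgeR). Summed macrophage markers overlapped at 18.5 to 80.0 and 32.4 to 143.0 CPM, with 0 of 7 called and Mrc1 the most abundant, and endothelial markers at 40.3 to 66.5 and 45.8 to 96.3 CPM, with 2 of 6 higher, Cdh5 (log2 fold change 1.56, adjusted p = 0.0284, edgeR) and Kdr (1.06, adjusted p = 0.0243). Cldn5 was the most abundant of the endothelial list over all 12 mice, at 17.3 CPM in AD and 14.6 CPM in AD+OB, but lay under Kdr and Cdh5 in AD+OB mice (−0.25, adjusted p = 0.620).

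The summed basal keratinocyte list, most of which was Krt5 and Krt14, did not overlap between the groups, at 3464 to 5160 CPM in AD and 6071 to 10720 CPM in AD+OB. Of its 5 genes 3 were higher in AD+OB by edgeR, Krt5, the most abundant (log2 fold change 0.81, adjusted p = 0.00679), Krt14 (1.05, adjusted p = 0.0248) and Krt15 (1.21, adjusted p = 0.0151). The others, Col17a1 (0.0010, adjusted p = 0.998) and Itga6 (0.14, adjusted p = 0.564), did not pass. Hair shaft markers lay at 2572 to 5268 and 3966 to 6574 CPM. Of these, 3 of 8 were higher by edgeR, Krt31 (log2 fold change 1.14, adjusted p = 0.00459), Krt34 (1.33, adjusted p = 0.00283) and Krt86 (1.13, adjusted p = 0.0431). Krt81, the most abundant, did not pass (0.52, adjusted p = 0.1085). Krt33a alone of this list had a negative log2 fold change (−0.28, adjusted p = 0.556, edgeR). Sebocyte (Elovl3), suprabasal (Lor), hyperproliferative (Krt6a) and fibroblast (Col1a1) lists, each given with its most abundant gene, overlapped between the groups and had 0 genes called. The part of these markers in the levels of Slc27a4, Fabp5, Acsl3 and the other genes above, which are also expressed in keratinocytes, was not tested.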

How the data were processed

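Skin RNA from 5 AD and 7 AD+OB mice was made into QuantSeq 3′ mRNA libraries, and samples were grouped by their labels. For each library the authors deposited a table of raw counts by gene symbol. Bowtie2, bedtools and mm10 are listed in the submitters' processing notes; their versions, the annotation, strand setting and treatment of duplicate reads are not given in the sources used here. No molecular identifiers are described, so reads copied from the same molecule could not be told apart. The CPM value of 3 counts therefore covers the counting error of reads only. The 95% intervals come from the edgeR fit, which uses the variation between mice.

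Counts were fitted with edgeR 4.0.16 in R 4.3.3 (TMM, filterByExpr, a quasi-likelihood test of group alone, adjusted by Benjamini-Hochberg over 14163 genes, at 0.05). Alternatives used limma 3.58.1 and DESeq2 1.42.0. Other steps used Python 3.11.15, NumPy 2.4.6, SciPy 1.17.1, pandas 2.3.3 and matplotlib 3.10.9. Exact permutation tests were two-sided on log2(CPM + 1), with a pseudocount of 1. Counts per molecule were estimated per library from how often genes with 10 to 200 reads expected in the group had none. Differences in expression between mice of a group can also raise this estimate. Positions came from GENCODE on GRCm38 and promoters from RefSeq. The edgeR, limma and DESeq2 fits were run on simulated counts with 200 changed genes. Those counts had the same dispersion for all genes and no duplicate reads, so they do not cover the difference in library complexity between the groups. The exact permutation test was run separately on simulated normal values.

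The 9 genes and all lists were chosen with earlier results of these data known. Every one of the 9 is named, and of each pathway list the genes called and the most abundant gene not called. Each marker list gives its most abundant gene. Slc27a2, Slc27a5, Acot1, Abhd5, Pparg, Plin1, Lep, Kdr, Cdh5, Krt14, Krt15, Col17a1, Itga6, Krt31, Krt34, Krt86, Utp14b and Zdhhc6 are named outside that rule, with their values already known. The same holds for Adipoq, Cidec, Cfd, Retn, Mylpf and Krt33a. Alternatives were other scalings, filters, tools and priors, division by counts per molecule, the replicate number as a block, leaving out each mouse, other statistics and pseudocounts and, added after seeing the data, a GC correction in 20 bins.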

Additional observations from a re-analysis of the deposited data

Results flagged for a closer look

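Of 32 sets of values examined for a sample far from the others of its group, 4 had one, where chance would give about 1.6 in independent sets. The sets were not independent, since the shares are built from the same reads as the levels. Within AD+OB, mouse 4 had the lowest Slc27a3, at 3.66 in log2(CPM + 1). The same mouse had 2.81% of the SLC27 reads on Slc27a3 and 96.6% on Slc27a4, the lowest and the highest of the 7. Within AD, mouse 1 had the highest Fabp5, at 10.87 in log2(CPM + 1).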

How the results depend on the processing

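None of the 9 genes passed the adjusted threshold in any of the 23 alternatives (0 higher and 0 lower in each, with Slc27a1 tested in 22). The number with an exact permutation p under 0.05 was 1, and 2 with library totals alone, and 1 to 3 without 1 mouse (3 without AD mouse 5, 2 without AD mouse 3 or AD+OB mouse 3 or 4). Of the 32 pathway genes, the 2 that rose became 4 with library totals, upper quartile scaling or at least 10 counts in every mouse, 6 with DESeq2's Wald test or counts per molecule, 0 with the GC correction added after seeing the data, and 0 to 3 without 1 mouse (0 without AD+OB mouse 2, and 1 without AD mouse 3 or 5 or AD+OB mouse 1, 4 or 7), and the 2 that fell became 1 to 3 (1 without AD mouse 2). The causes were not tested. Over all genes, 1303 calls (627 higher) became 1263 (744 higher) with library totals, 1417 (415 higher) with the GC correction, which moved the median log2 fold change from 0.02 to −0.08, and 2159 with DESeq2's Wald test. Without 1 mouse there were 639 to 1461 calls, with 639 without AD+OB mouse 2, 686 without AD+OB mouse 1, 794 without AD+OB mouse 4 and 803 without AD mouse 2, so the 9.2% of all genes called rests in part on these mice. The Acsl5 log2 fold change turned to 0.036 with library totals and 0.0070 with upper quartile scaling, and its difference in mean log2(CPM + 1) to 0.029 with library totals. Without 1 mouse it ranged from −0.082 to 0.062, with values of 0.011, 0.062, 0.020, 0.029 and 0.014 above 0, and the difference in means from −0.080 to 0.040, with 0.0024, 0.040, 0.020, 0.017 and 0.012. Without 1 mouse, Acsl1 ranged from −0.315 to 0.12 in log2 fold change and from −0.25 to 0.12 in means, and Cd36 from −0.21 to 0.00064 in log2 fold change, each above 0 without AD mouse 1. Shares of family reads without 1 mouse differed by −2.03 to 0.80 points for Acsl1, 3.82 to 5.47 for Acsl3, −5.59 to −2.35 for Acsl4, −0.65 to 2.95 for Acsl5, −0.10 to 0.20 for Slc27a1, −9.49 to −3.98 for Slc27a3 and 4.02 to 9.53 for Slc27a4.

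The labels number the mice of both groups from 1. Deviations of same-numbered mice correlated at only −0.08 to 0.039, and 0 of 5 AD libraries correlated best with their own number. These values showed no sign of pairing, but weak correlations cannot exclude it. In AD mice 1 to 5 the estimated counts per molecule fell with the number, at 32.18, 29.22, 16.49, 12.2 and 12.01. What the numbers stand for is not stated, and the main fit did not use them. With the replicate number as a block, calls over all genes fell from 1303 to 192, pathway calls to 0 higher and 0 lower, and the 9 genes stayed at 0 in both directions. AD+OB mice 6 and 7 have no AD mouse of their number, so they add nothing to the group difference in this fit. With fewer mice and more terms, calls can fall whatever the numbers stand for, so the fall does not show pairing. The number of the 9 with an exact permutation p under 0.05 went from 1 to 0, but with 5 pairs that p cannot go below 0.0625. Under this block Pnpla2 was 0.78 (adjusted p = 0.0696), Lipe 1.07 (0.0979), Acot13 −0.66 (0.129) and Rxra −0.54 (0.0814), by edgeR. The Acsl3 share differed by 4.69 points (exact permutation p = 0.125), the Slc27a1 share by −0.24, Slc27a1 by 0.061 in the fit, and Acsl5 by 0.0062 in the fit and 0.0065 in mean log2(CPM + 1). Depth limits Slc27a1, which had 25 to 72 reads per mouse. Other genes also rested on few estimated molecules in AD mice. These were 8.37 to 35.3 for Slc27a3, 13.96 to 34.64 for Acsl1 and 16.26 to 38.28 for Cd36. In AD+OB mice they were 21.25 to 109.8, 72.7 to 156.7 and 51.85 to 139.1. The part of this sampling in the spread of AD levels and shares was not tested.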

Other observations

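For each of the 9 genes, the genes whose level moved most like it from mouse to mouse within the groups were read from 13200 genes with a mean count of at least 20, as Pearson's r of log2 CPM over 12 mice after each group's mean was taken away. The values describe these libraries only, since the highest of many is always large and all genes of a library share its depth and quality. Fabp5 had the closest companions, Mrpl51 (r = 0.967), for a mitochondrial ribosomal protein, and Ebp (r = 0.960), for an enzyme of cholesterol synthesis. Slc27a4 ran with Pex11g (r = 0.911), for a protein of peroxisome division, and Pank1 (r = 0.898), for pantothenate kinase 1, an enzyme of coenzyme A synthesis. Cd36 ran with Myo1g (r = 0.859) and Fcgr4 (r = 0.841), the latter for an Fc receptor of myeloid cells. Acsl4 ran with Snord100 (r = 0.912) and Rpl23a (r = 0.906), and Slc27a1 with Heyl (r = 0.886) and Rpl29 (r = 0.859). Slc27a3 ran with Gna15 (r = 0.911) and Fbp2 (r = 0.896), Acsl1 with Rnf144b (r = 0.901) and Smpdl3a (r = 0.894), Acsl3 with Map3k9 (r = 0.890) and Fbxw4 (r = 0.869), and Acsl5 with Chd2 (r = 0.912) and Vps37a (r = 0.864).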
